A study of Homo sapiens with 12 samples.

Results

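SPX, ALOXE3 and BEST1 are 3 of the 57500 genes in the count table, and 3 of the 27029 that held enough reads to be tested. They were chosen by name, from earlier results of these same data, as genes whose RNA was higher with the guide against PACT in both cell lines studied. Their fold changes with that guide are therefore given with an error and without a test. The study used CRISPR-Cas9 to deplete PACT, the double-stranded RNA binding protein encoded by PRKRA, in 2 established lines of triple-negative breast cancer, HCC1806 and MDA-MB-468. In HCC1806, 3 libraries carried the control guide sgC1 and 3 carried sgPACT-2. In MDA-MB-468, 3 libraries carried the control guide sgNTA and 3 carried the same sgPACT-2. All 12 libraries were made from total RNA depleted of ribosomal RNA. With 1 guide against PRKRA, an effect of the depletion and an effect of that guide cannot be told apart. The labels do not say whether the cells of a group were a clone or a pool, or whether its 3 replicates were separate cultures, so p-values measure only the spread between these libraries, which may be technical.

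SPX encodes spexin, a secreted peptide of the galanin and kisspeptin family that is cut from a larger precursor and acts through the galanin receptors GALR2 and GALR3. ALOXE3 encodes an epidermal lipoxygenase that works after ALOX12B in making the lipid envelope of the outer skin, and loss of either enzyme causes ichthyosis. BEST1 encodes bestrophin-1, a calcium-activated chloride channel best known from the retinal pigment epithelium, where its mutations cause Best vitelliform macular dystrophy. None of the 3 is a usual marker of breast epithelium.

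On GRCh38, in the GENCODE 29 annotation, SPX (ENSG00000134548) lies at chr12:21526307-21541249 on the plus strand, ALOXE3 (ENSG00000179148) at chr17:8095900-8119047 on the minus strand and BEST1 (ENSG00000167995) at chr11:61949821-61965515 on the plus strand. The 3 genes are thus on different chromosomes. RefSeq promoters, each 250 bases before and 50 after a transcription start on GRCh38.p14, were found for 2 of the 3 genes, SPX and ALOXE3. They are printed 5′ to 3′ on the gene's own strand because the genes were higher together, so that their start regions can be compared. Capitals mark matches, on either strand, to 7 short motifs: TGATGCAA (the C/EBP-ATF composite core), TGACGTCA (the CRE), TGANTCA (AP-1), CACGTG (the E-box), CATGTG (the core of the M-box) and GGACTTTCC and GGAATTTCC (NF-kappaB). The SPX window is chr12:21527702-21528001, plus strand. The outer ALOXE3 start window is chr17:8118867-8119166 and an inner one is chr17:8118465-8118764, both on the minus strand.
SPX: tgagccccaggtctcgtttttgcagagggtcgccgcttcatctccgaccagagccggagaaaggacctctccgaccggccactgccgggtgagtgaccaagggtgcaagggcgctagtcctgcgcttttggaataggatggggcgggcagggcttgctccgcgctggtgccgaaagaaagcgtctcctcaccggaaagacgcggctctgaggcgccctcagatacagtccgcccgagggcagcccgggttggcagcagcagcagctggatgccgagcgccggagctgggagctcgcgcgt
ALOXE3, outer start: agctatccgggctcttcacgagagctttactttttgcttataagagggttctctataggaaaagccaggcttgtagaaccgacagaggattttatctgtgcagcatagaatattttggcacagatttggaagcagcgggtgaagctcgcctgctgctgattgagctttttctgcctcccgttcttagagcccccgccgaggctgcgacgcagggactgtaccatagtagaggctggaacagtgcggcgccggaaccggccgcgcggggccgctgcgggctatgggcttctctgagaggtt
ALOXE3, inner start: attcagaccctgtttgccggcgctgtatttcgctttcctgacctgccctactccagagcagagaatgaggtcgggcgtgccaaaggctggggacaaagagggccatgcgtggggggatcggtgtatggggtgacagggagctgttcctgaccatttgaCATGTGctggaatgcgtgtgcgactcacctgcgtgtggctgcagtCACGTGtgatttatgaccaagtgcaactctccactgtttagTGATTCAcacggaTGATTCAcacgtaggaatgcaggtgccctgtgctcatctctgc

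The SPX window and the outer ALOXE3 window held no match to the 7 motifs. The inner ALOXE3 window held a pair of TGATTCA matches, beginning at positions -6 and 8 from the start, a CACGTG at -47 and a CATGTG at -92. A further ALOXE3 start lies downstream, with the window chr17:8118254-8118553, where the same pair of TGATTCA falls at -217 and -204 because the windows overlap. Of 35116 RefSeq promoters of this length, 7.71% held a TGANTCA, 7.26% a CACGTG and 11.1% a CATGTG. The motifs absent from these windows were present in 0.866% (TGATGCAA), 1.85% (TGACGTCA), 0.37% (GGACTTTCC) and 0.461% (GGAATTTCC) of promoters. A match describes the letters of a window and is not a site or a cause. The SPX window had a GC content of 66.3% and the ALOXE3 windows printed here 55.3% each, beside a median of 58.7% over all promoters.

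The libraries and the labels were checked first. Totals ran from 18640633 to 24704877 counts in HCC1806 and from 34581754 to 44790741 in MDA-MB-468. PRKRA fell in HCC1806, from 77.8 ± 5.30 to 36.9 ± 0.774 CPM (counts scaled to library depth, with TMM factors; mean ± SD, n = 3; log2 fold change -1.07, SE 0.10, adjusted p = 1.7e-05 by edgeR's quasi-likelihood test with Benjamini-Hochberg adjustment). In MDA-MB-468 PRKRA RNA stood at 44.7 ± 3.12 and 38.8 ± 3.09 CPM and the groups overlapped (log2 fold change -0.20, edgeR adjusted p = 0.958), so RNA does not check the depletion there. EIF2AK2, which encodes PKR, a kinase that PACT can activate, had log2 fold changes of -0.39 (edgeR adjusted p = 0.0664) and -0.00. A guide can disrupt a protein without lowering its RNA, and protein was not measured here. Of 10 epithelial markers, 3 fell in HCC1806 (EPCAM, CDH1 and KRT5), where 1.32% of all tested genes were called lower. The summed level of the 10 was 3986 to 4446 CPM in controls and 2993 to 3239 CPM with sgPACT-2. KRT17, the only 1 of the 10 with a fold change above 0 there, went from 19.5 ± 2.20 to 27.8 ± 3.17 CPM. Its groups did not overlap (log2 fold change 0.51, edgeR adjusted p = 0.0809), and DESeq2 called it. In MDA-MB-468 none of these 10 passed the edgeR test, with a median log2 fold change of -0.06. EGFR made up most of their sum there, and the other 9 summed to 4882 to 5349 CPM in controls and 4429 to 5352 CPM with sgPACT-2. The part of this change in the results for the 3 genes was not tested. Markers of other cell types summed to at most 60.3 CPM in any library, and CD3E, which marks T cells, had at most 1 count. COL1A1 made up most of this sum and was not near 0. It averaged 33.4 CPM with sgC1 and 44.5 CPM with sgPACT-2 in HCC1806 (log2 fold change 0.41, edgeR adjusted p = 0.164). In MDA-MB-468 it averaged 19.8 and 18.3 CPM. Of the receptors that define triple-negative disease, PGR had at most 9 counts, whereas ESR1 was measurable (20.9 CPM in HCC1806 controls and 6.67 CPM in MDA-MB-468 controls), as was ERBB2 (194.2 and 139.8 CPM).

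SPX had the lowest starting level and the largest relative difference of the 3 genes. In HCC1806 the sgC1 libraries held 29, 18 and 13 SPX counts and the sgPACT-2 libraries 148, 140 and 163. Each depleted library was above each control library, and the lowest of them was 4.5 times the highest control in CPM. The means were 0.855 ± 0.332 CPM with sgC1 and 6.25 ± 0.919 CPM with sgPACT-2 (SD, n = 3), a log2 fold change of 2.86 (SE 0.33) and a 7.31-fold ratio of means. In MDA-MB-468 all 3 sgNTA libraries held 0 SPX counts, and the sgPACT-2 libraries held 36, 38 and 27. SPX was thus below detection in the controls of this line and present in each depleted library. A count of 0 allows up to 3 counts per library, counting error only, so SPX was at least 12.0-fold higher with sgPACT-2, where it averaged 1.0 ± 0.158 CPM.

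ALOXE3 was higher with sgPACT-2 in both lines. In HCC1806 its counts were 149, 110 and 107 with sgC1 and 514, 347 and 441 with sgPACT-2. The groups did not overlap, and sgPACT-2 replicate 1 stood apart at 25.2 CPM beside 15.0 and 14.7 CPM in the other depleted libraries. Means were 5.22 ± 0.879 and 18.3 ± 5.95 CPM, a log2 fold change of 1.81 (SE 0.25), or 1.51 with that library left out. In MDA-MB-468 the counts were 31, 36 and 22 with sgNTA and 96, 63 and 79 with sgPACT-2. Again each depleted library was above each control, although the lowest depleted library was only 1.73 times the highest control. The means were 0.836 ± 0.274 and 2.35 ± 0.426 CPM, a log2 fold change of 1.51 (SE 0.29). The depleted mean was 3.51 times the control mean in HCC1806, and 2.82 times in the other line; whether these ratios differ was not tested.

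BEST1 was the most abundant of the 3 by CPM in every group. In HCC1806 its counts were 137, 226 and 204 with sgC1 and 419, 468 and 645 with sgPACT-2. The depleted libraries lay close together at 20.3 to 21.5 CPM, a coefficient of variation of 3.19%, whereas the controls spread by 27.5%. The means were 8.16 ± 2.24 and 20.8 ± 0.664 CPM, a log2 fold change of 1.35 (SE 0.24). In MDA-MB-468 the counts were 91, 119 and 76 with sgNTA and 232, 226 and 357 with sgPACT-2. The groups did not overlap, and sgPACT-2 replicate 3 was the highest at 11.0 CPM, beside 6.61 and 6.80 CPM. The means were 2.68 ± 0.871 and 8.13 ± 2.47 CPM, a log2 fold change of 1.61 (SE 0.25), or 1.33 without replicate 3.

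**Figure D1:**
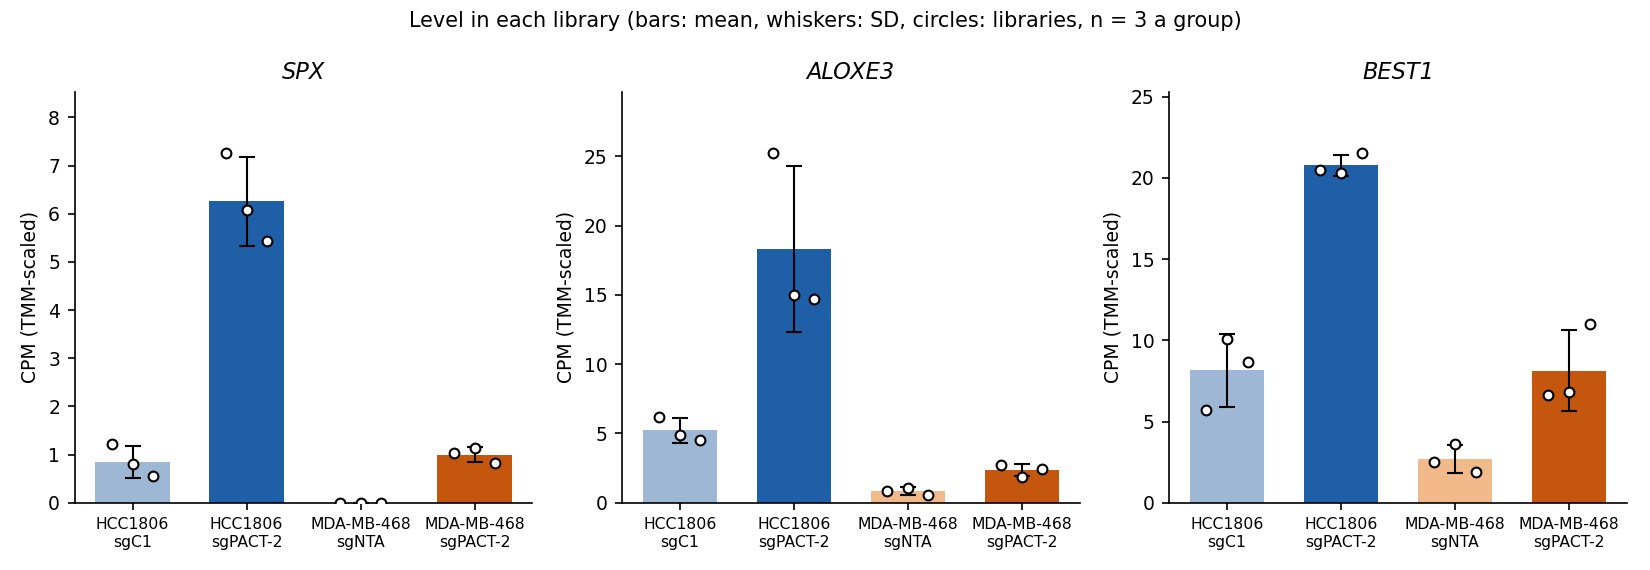
CPM of SPX, ALOXE3 and BEST1 in each of the 12 libraries (y axis, linear and starting at 0), by line and guide (x axis). Bars are means, whiskers SD and circles libraries (n = 3 a group); in each panel and line all 3 sgPACT-2 circles lie above all 3 control circles.

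All 3 genes were among the 314 genes called higher in HCC1806, 1.16% of those tested, and among the 46 called higher in MDA-MB-468, 0.17% of those tested. They were also among the 17 called higher in both lines, 0.0629% of those tested. With the replicate number as a block, 1947 genes were called in HCC1806 in either direction, against 672 without it (2.49% of those tested). The genes called lower without the block were 1.32% of those tested. In MDA-MB-468 edgeR called 0 genes lower, with 1424 genes at an unadjusted p under 0.05 in either direction, and DESeq2 called 12 lower. EdgeR called 64 lower there when only the 6 MDA-MB-468 libraries were fitted, 16 without a filter on low counts and 6 with the replicate block. All depleted libraries were above all controls in both lines for 1.09% of tested genes, and for 8.51% when only HCC1806 was read and 6.2% when only MDA-MB-468 was. These contrasts chose the genes, so nothing is read from their standing in them. The others of the 17 were AC107959.3, INHBE, ROCK1P1, ATF3, TNFAIP3, NR1D1, PPP1R15A, TSLP, GADD45A, RELB, PLA2G4C, IKBKE, NFKB2 and KIFC3.

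**Figure D2:**
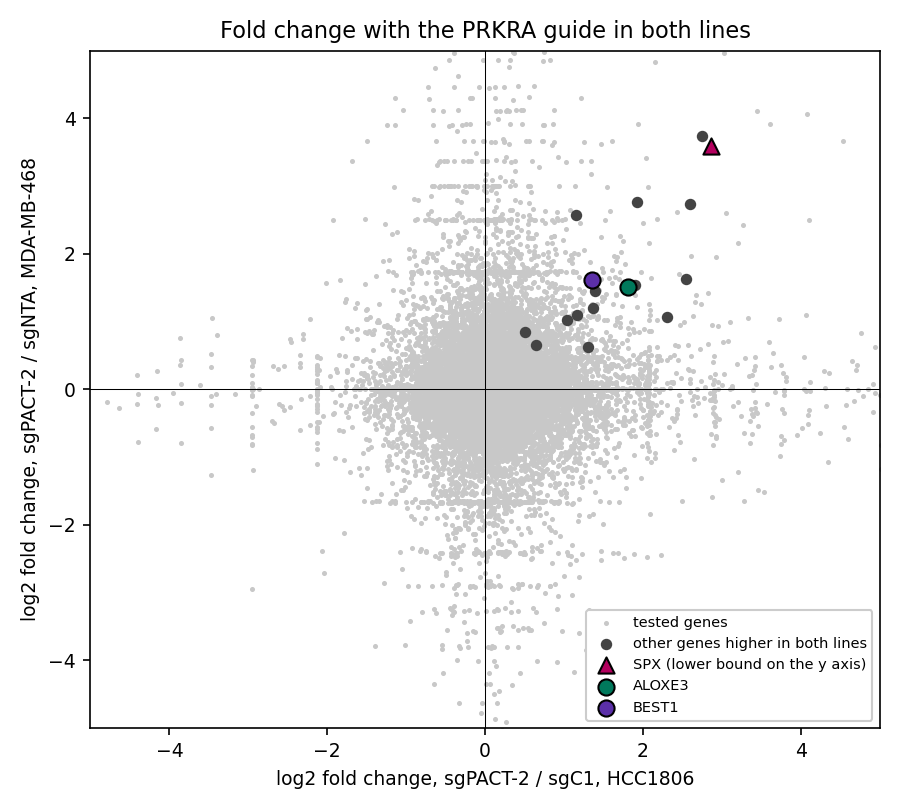
Fold change with sgPACT-2 in HCC1806 (x axis) against MDA-MB-468 (y axis), both log2, for 27029 tested genes (grey; 43 lie outside the axes). Dark points are the other genes called higher in both lines, and the triangle puts SPX at its lower bound of 3.59 on the y axis, with ALOXE3 at 1.81 and 1.51 and BEST1 at 1.35 and 1.61.

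The control libraries differed strongly between the lines. The genes were not chosen by this comparison, but their choice used the same control libraries, and a low control level raises a fold change. The p-values below are therefore not independent of the choice. The line and its control guide cannot be told apart in this comparison. All 3 genes were lower in MDA-MB-468 controls than in HCC1806 controls. At baseline 74.2% of tested genes were called between the lines and 40.1% were called lower in MDA-MB-468 (34.2% higher). ALOXE3 was lower by a log2 difference of -2.65 (SE 0.29, edgeR quasi-likelihood adjusted p = 2.1e-07), with the HCC1806 mean 6.25 times the other. BEST1 was lower by -1.61 (SE 0.26, edgeR adjusted p = 2.4e-05), a 3.04-fold ratio of means. SPX, at 0 counts in each MDA-MB-468 control, was at least 10.3-fold lower there (edgeR adjusted p = 3.0e-07). In each case all 3 MDA-MB-468 controls were below all 3 HCC1806 controls.

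The order of the 4 groups differed between the genes at its middle. HCC1806 with sgPACT-2 was highest and MDA-MB-468 with sgNTA lowest for all 3. For BEST1 the depleted MDA-MB-468 libraries (8.13 ± 2.47 CPM) and the HCC1806 controls (8.16 ± 2.24 CPM) overlapped. For SPX they overlapped too, at 1.0 ± 0.158 CPM in depleted MDA-MB-468 and 0.855 ± 0.332 CPM in HCC1806 controls. ALOXE3 in depleted MDA-MB-468 (1.89 to 2.74 CPM) stayed below its HCC1806 controls (4.53 to 6.21 CPM). In the depleted libraries the HCC1806 mean was 6.25 times the MDA-MB-468 mean for SPX, 7.78 times for ALOXE3 and 2.56 times for BEST1. The gain with sgPACT-2 was 5.4, 13.1 and 12.6 CPM for SPX, ALOXE3 and BEST1 in HCC1806, and 1.0, 1.52 and 5.45 CPM in MDA-MB-468.

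Levels are comparable between genes only per length, and merged exons in GENCODE 29 come to 7.23 kb for SPX, 3.76 kb for ALOXE3 and 8.93 kb for BEST1. These lengths pool the exons of all annotated transcripts (8 for SPX, 4 for ALOXE3 and 8 for BEST1). The transcripts in use were not measured, so the levels per kb, their order and the shares below depend on this choice of length. By CPM alone BEST1 was the highest in every group. Per kilobase, ALOXE3 led in HCC1806, with a level of 1.39 CPM per kb in controls and 4.87 with sgPACT-2. BEST1 followed there at 0.913 and 2.33 CPM per kb, and SPX stood at 0.118 and 0.865. In MDA-MB-468 BEST1 led, at 0.301 CPM per kb in controls and 0.91 with sgPACT-2, ahead of ALOXE3 at 0.222 and 0.626, while SPX reached 0.138 with sgPACT-2. The shares are of 26862 tested genes with an exon length, so genes with too few reads to be tested are left out. In depleted HCC1806 cells 28.8% of these had a lower level per kb than SPX, 69.5% than ALOXE3 and 50.7% than BEST1. In the controls these shares were 7.8%, 39.5% and 31.1%. In MDA-MB-468 the shares went from 0% to 16.1% for SPX, from 21.0% to 35.8% for ALOXE3 and from 24.8% to 42.2% for BEST1. With sgPACT-2, all 3 thus stayed below the median of these tested genes in MDA-MB-468 by this measure of length.

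No tested relative of spexin was called by edgeR or DESeq2 in either line. Of 7 other genes of the galanin and kisspeptin family 4 could be tested, and 0 had an unadjusted p under 0.05. Their median log2 fold change was -0.25 in HCC1806, where that of all genes was 0.01, and 0.36 in MDA-MB-468, where that of all genes was -0.01. GAL, the precursor of galanin, had means of 31.2 CPM with sgC1 and 25.7 CPM with sgPACT-2 in HCC1806 (log2 fold change -0.29, edgeR adjusted p = 0.775). The spexin receptor GALR2 stood at 1.78 and 1.5 CPM in HCC1806 and at 1.44 and 1.52 CPM in MDA-MB-468. GALR3, the other spexin receptor, had 1 to 8 counts per HCC1806 library and 7 to 27 per MDA-MB-468 library. Of 9 genes for enzymes that cut and finish peptide precursors 8 were tested and edgeR called none in either line. PAM, which amidates peptides, had a log2 fold change of -0.36 in HCC1806 (edgeR adjusted p = 0.0981) and was called there by DESeq2 and by edgeR with the replicate block. FURIN, a general convertase, was at 101.2 and 100.7 CPM in HCC1806.

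Among the enzymes and structural genes around ALOXE3, edgeR without a block called ABHD5 higher and KLK5 lower, both in HCC1806. ALOX12B, which makes the substrate of ALOXE3 and lies next to it, had 56 to 59 counts with sgC1 and 77 to 147 with sgPACT-2 in HCC1806. Those groups did not overlap, at 2.46 ± 0.0462 and 4.45 ± 0.601 CPM, but the difference did not pass the test (log2 fold change 0.86, SE 0.36, edgeR adjusted p = 0.27). In MDA-MB-468 ALOX12B was at 5 to 27 counts with sgNTA and 6 to 14 with sgPACT-2. None of 8 tested lipoxygenases and epoxide hydrolases was called by edgeR or DESeq2 in either line, with median log2 fold changes of -0.06 and -0.22. An edgeR unadjusted p under 0.05 was found for 2 of the 8 in HCC1806 (ALOX12B and EPHX3), 25.0% beside 14.5% of all tested genes. In MDA-MB-468 it was found for 0. Of 10 tested genes of the epidermal lipid barrier, 1 rose in HCC1806 (median 0.29), and edgeR called none in the other line (median with CERS3 and NIPAL4, at the floor there, left out, 0.02). That gene was ABHD5, a co-activator of lipid hydrolysis, at 9.83 ± 0.326 and 15.7 ± 0.877 CPM (log2 fold change 0.68, SE 0.12, edgeR adjusted p = 0.00485). At an edgeR unadjusted p under 0.05 the barrier list had 4 genes in HCC1806, 40.0%, beside 14.5% of all tested genes. In MDA-MB-468 it had 1, 10.0%, beside 5.27%. TGM1, the transglutaminase of the cornified envelope, had log2 fold changes of 0.37 and 0.61 (edgeR adjusted p = 0.5 and 0.457). In MDA-MB-468 its groups did not overlap, at 13.6 ± 0.638 CPM with sgNTA and 20.8 ± 1.61 CPM with sgPACT-2. EdgeR with the replicate block called it there, 10.0% of the barrier genes, beside 0.377% of all tested genes. Of 12 tested genes of keratinocyte differentiation 1 fell in HCC1806, the skin protease KLK5 (log2 fold change -0.48, SE 0.09, edgeR adjusted p = 0.0101), and edgeR called none in MDA-MB-468. Its unadjusted p was under 0.05 for 3 of the 12 in HCC1806 (25.0%) and for 1 in MDA-MB-468 (8.33%). The median of this list was 0.25 in HCC1806, with 7 of 12 fold changes above 0, and -0.18 in MDA-MB-468. The summed level of the list without KLK5 in HCC1806 was 19.4 to 21.7 CPM with sgC1 and 20.5 to 21.5 CPM with sgPACT-2.

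The other bestrophins were scarce. BEST2 had 8 to 29 counts per HCC1806 library and BEST4 had 4 to 19; neither was called by edgeR or DESeq2 in either line, and BEST3 held too few reads to be tested. Of 21 tested chloride channel genes outside the family 1 fell in HCC1806, CLCA2 (700 to 977 counts with sgC1 and 421 to 524 with sgPACT-2, log2 fold change -0.77, SE 0.19, edgeR adjusted p = 0.0365), and edgeR called none in MDA-MB-468. With the replicate block edgeR called ANO9, LRRC8A and TTYH2 in HCC1806 as well, so 4 of the 21, 19.0%, beside 7.2% of all tested genes. Without the block, 7 of the 21 had an edgeR unadjusted p under 0.05 in HCC1806, 33.3%, beside 14.5% of all tested genes. In MDA-MB-468, 2 did, 9.52%, beside 5.27%. ANO1, a calcium-activated chloride channel of another family, stood at 140.1 and 126.4 CPM in HCC1806. TTYH2 had the smallest adjusted p of the list in MDA-MB-468, at 6 to 33 counts with sgNTA and 1 to 5 with sgPACT-2 (log2 fold change -2.5, edgeR adjusted p = 0.0803), and DESeq2 called it. Of 13 other genes of the retinal pigment epithelium 6 were tested and edgeR called none, with medians of 0.16 and, without the floor gene RPE65, -0.15. RPE65, the retinoid isomerase of that tissue, was at 6.8 and 7.35 CPM in HCC1806 and at most 2 counts in MDA-MB-468. TYRP1, a melanin enzyme, had 15 to 21 counts with sgC1 and 23 to 50 with sgPACT-2 in HCC1806, and 1 to 14 with sgNTA and 23 to 45 with sgPACT-2 in MDA-MB-468. Its depleted libraries were above its controls in both lines, with log2 fold changes of 0.88 (edgeR adjusted p = 0.512) and 2.47 (edgeR adjusted p = 0.181), and DESeq2 called it in MDA-MB-468. LRAT, which esterifies retinol, had a log2 fold change of 1.52 in HCC1806 (edgeR adjusted p = 0.0594), where DESeq2 called it, and -0.47 in MDA-MB-468. Among regulators of BEST1 in the eye, MITF had log2 fold changes of 0.31 and 0.55, TFEB 0.45 and 0.44 and SOX9 0.78 and -0.16. TFEC, a relative of MITF, had 451 to 602 counts with sgC1 and 267 to 476 with sgPACT-2 in HCC1806 (log2 fold change -0.55, edgeR adjusted p = 0.151) and at most 3 counts in MDA-MB-468. EdgeR called none of the 5 tested regulators in either line. In HCC1806 DESeq2 called TFEC, 20% of the 5 beside 4.61% of all tested genes. There edgeR with the replicate block called TFEC, TFEB and SOX9, 60% beside 7.2%. These calls went in different directions, with TFEC lower and TFEB and SOX9 higher. OTX2, another such regulator, had at most 2 counts and CRX at most 5.

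Over these 9 lists together, 74 genes besides the 3 were tested. In HCC1806 edgeR called 1 higher and 2 lower, beside 1.16% and 1.32% of all tested genes. There 21 of the 74, or 28.4%, had an unadjusted p under 0.05, where 14.5% of all tested genes (3909) did. DESeq2 called 6 of the 74 there, 8.11%, beside 4.61% of all tested genes. With the replicate block edgeR called 10 of the 74 in HCC1806, 13.5%, beside 7.2% of all tested genes. In MDA-MB-468 edgeR called 0, but it called only 0.17% of all tested genes there, so this 0 says little about the 74. Of them 6, or 8.11%, had an unadjusted p under 0.05, where 5.27% of all tested genes did. DESeq2 called 2 (TTYH2 and TYRP1), or 2.7%, beside 0.418% of all tested genes.

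**Figure D3:**
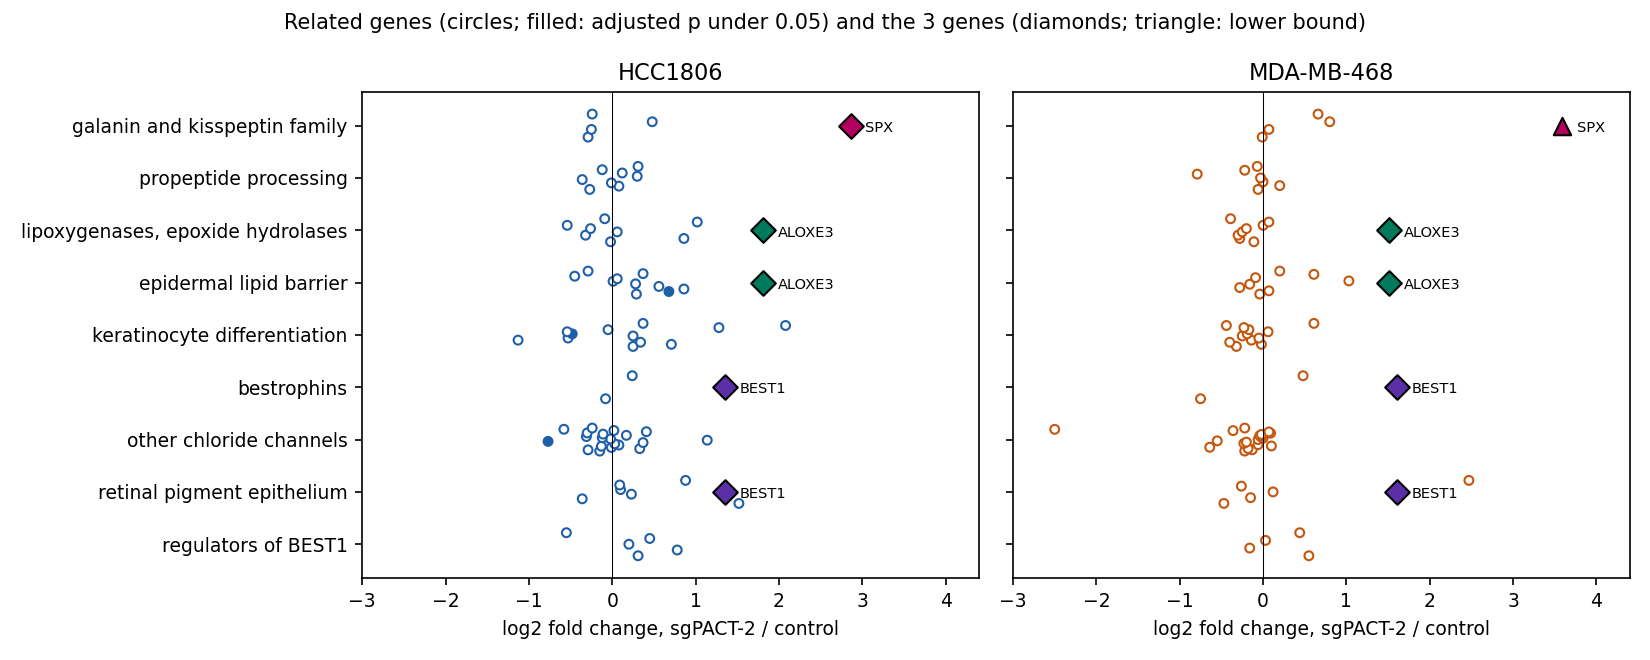
Log2 fold change with sgPACT-2 (x axis) of the tested genes of each of the 9 related lists (y axis), in HCC1806 (left) and MDA-MB-468 (right). Filled circles are ABHD5, KLK5 and CLCA2, past the edgeR threshold of 0.05; diamonds are the 3 genes, the triangle is the lower bound for SPX, and genes with at most 3 counts in every library of a group are left out.

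Genes next to the 3 were examined because reads of overlapping genes cannot be told apart when strand is not used, and the strand setting is not given in the sources used here. BEST1 overlaps FTH1, which encodes the ferritin heavy chain, on the opposite strand, and they share 1267 exon bases, 14.2% of those of BEST1. FTH1 was far more abundant: BEST1 counts were 0.62% to 1.0% of FTH1 counts in HCC1806 controls and 2.3% to 2.78% with sgPACT-2. In MDA-MB-468 they were 0.0859% to 0.163% in controls and 0.293% to 0.478% with sgPACT-2. FTH1 itself stood at 955.3 ± 114.2 and 830.2 ± 79.4 CPM in HCC1806 (log2 fold change -0.20, SE 0.12, edgeR adjusted p = 0.477) and at 2150 ± 110.9 and 2111 ± 289 CPM in MDA-MB-468 (-0.03, SE 0.12, edgeR adjusted p = 1.0). Between the control lines FTH1 was higher in MDA-MB-468, by a log2 difference of 1.17, where BEST1 was lower. The part of reads shared with FTH1 in the BEST1 counts was not tested. SPX overlaps GYS2, the liver glycogen synthase, on the opposite strand over 375 exon bases, 5.2% of its own. GYS2 had 1 to 6 counts per HCC1806 library and 0 in MDA-MB-468.

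Within 100 kb of the ends of the 3 genes, 23 other genes were tested and edgeR called none in either line, without a block. In HCC1806, 8 of them, 34.8%, had an unadjusted p under 0.05, and in MDA-MB-468 5, 21.7%; over all tested genes these shares were 14.5% and 5.27%. DESeq2 called 1 of them, PER1, in HCC1806 (4.35%, beside 4.61% of all tested genes) and 0 in MDA-MB-468 (beside 0.418%). EdgeR with the replicate block called 4 in HCC1806 (AURKB, FADS2, LDHB and PER1), 17.4%, beside 7.2% of all tested genes. In MDA-MB-468 edgeR with the block called 1, PER1, 4.35%, beside 0.377% of all tested genes. GOLT1B, 7899 bases from SPX, had log2 fold changes of -0.23 and 0.01. HES7, 1543 bases from ALOXE3, had 0.10 and 0.59. PER1, a core gene of the circadian clock 21425 bases from ALOXE3, had 0.71 (SE 0.19, edgeR adjusted p = 0.0615) in HCC1806 and 0.72 (SE 0.20, edgeR adjusted p = 0.349) in MDA-MB-468. Its groups overlapped in HCC1806, at 142.5 ± 32.1 and 233.7 ± 65.2 CPM. They did not overlap in MDA-MB-468, at 16.4 ± 3.44 CPM with sgNTA and 26.9 ± 1.85 CPM with sgPACT-2.

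**Figure D4:**
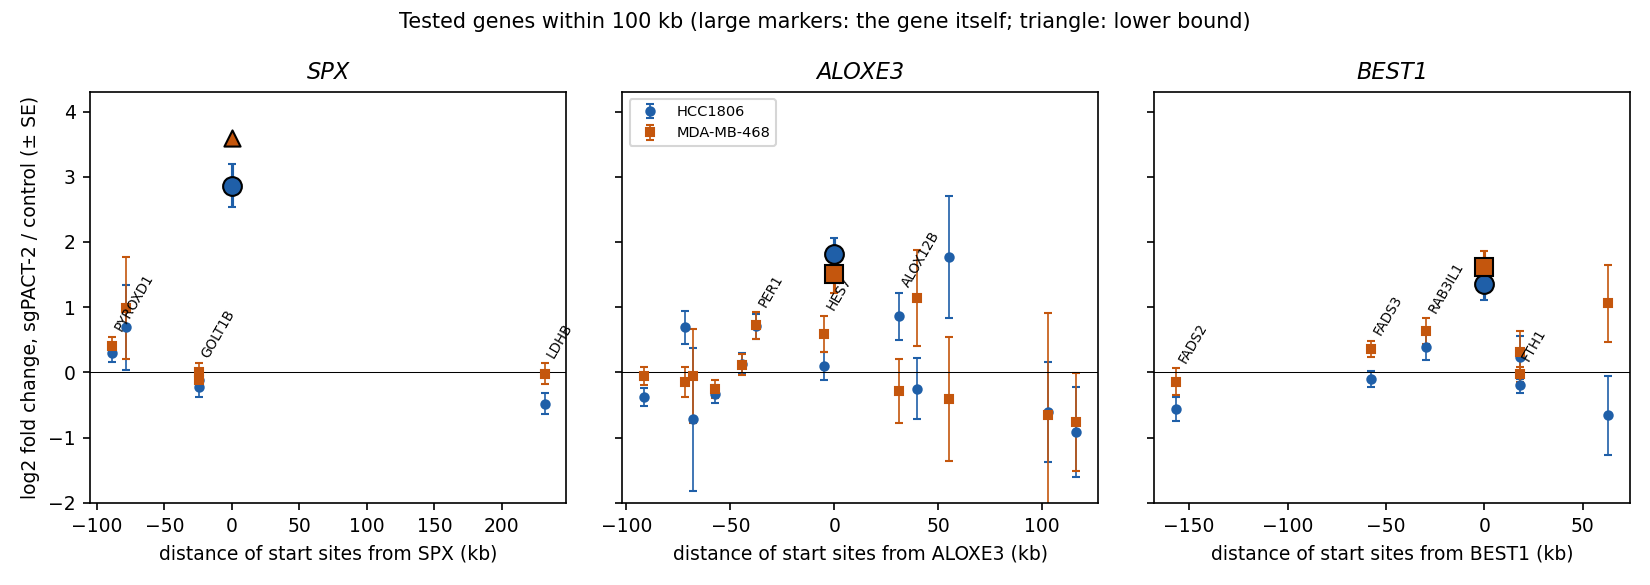
Log2 fold change with sgPACT-2, ± SE (y axis), of tested genes within 100 kb of SPX, ALOXE3 and BEST1, against the distance between start sites in kb (x axis; negative is upstream). Large markers are the 3 genes and the triangle is the lower bound for SPX; none of the neighbours passed the edgeR test without a block.

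Across the 12 libraries, after each line's own mean was removed from log2 CPM, the 3 genes followed each other with Pearson's r of 0.917 for SPX and ALOXE3, 0.888 for ALOXE3 and BEST1 and 0.882 for SPX and BEST1. These values describe the response that chose the genes and carry no test. Over 15918 genes averaging 50 counts or more, those most like SPX were RGS16 (r = 0.96), the pseudogene ROCK1P1 (0.957), INHBE (0.952), KIFC3 (0.951) and NFAT5 (0.943). Most like ALOXE3 were TNFAIP3 (0.972), KLF4 (0.969), SIK3 (0.963), TNFRSF10B (0.958) and GADD45A (0.953). Most like BEST1 were AC092120.2 (0.947), ROCK1P1 (0.941), AC011476.3 (0.923), INHBE (0.923) and MKLN1-AS (0.92). ROCK1P1 and INHBE, a subunit of the activin family, thus appeared for both SPX and BEST1, and none of the 5 for ALOXE3 appeared for another. This rests on the cut at 5 genes and does not set ALOXE3 apart, since SPX and ALOXE3 were the closest pair of the 3 (r = 0.917). Pseudogenes and antisense RNAs among these (ROCK1P1, AC092120.2, AC011476.3 and MKLN1-AS) can share reads with other genes, so their values are uncertain. A high r did not mean a large change, since SIK3 had log2 fold changes of 0.37 and 0.21 and NFAT5 0.27 and 0.43.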

How the data were processed

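The authors deposited a table of raw counts of reads per Ensembl gene for 12 libraries (3 in each of 4 groups). Per the submitters' processing notes, the tools were Trimmomatic 0.36, STAR 2.5.2b and featureCounts of Subread 1.5.2, with GRCh38; the annotation release and strand setting are not given in the sources used here. Per the labels' protocols, DNase treatment and removal of ribosomal RNA preceded library construction.

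SPX, ALOXE3 and BEST1, the gene lists and the tests were chosen with earlier results of these data known. Genes without a name hold 0.0284% of counts. Groups were compared with edgeR 4.0.16 in R 4.3.3 (TMM scaling, filterByExpr, quasi-likelihood test, two-sided, Benjamini-Hochberg over 27029 genes, threshold 0.05). One fit held all 12 libraries, with 1 coefficient per group. A group is at the floor where each library has at most 3 counts; against it a bound is given in place of a fitted fold change. Precision is set by the counts printed, and floors cover counting error only. Named genes were PRKRA, those past the threshold or with the 3 smallest adjusted p in each list, genes within 100 kb and the 5 most alike by r; of these the text gives the ones a comparison turns on, and further list genes given as levels were chosen after their values were seen. Lists were described by counts and medians. Positions and exon lengths came from GENCODE 29 and promoters from RefSeq. The fit was tested on simulated data. Same-numbered HCC1806 libraries deviated together (r = 0.479, 0.294 and 0.152 for replicates 1, 2 and 3), so their numbers, from the labels, were taken to pair them, although control 2 correlated more with depleted replicate 3 (r = 0.351) than with its own number. Counts of calls are without this block unless it is named. Alternatives were RLE and library-size scaling, DESeq2 1.42.0, other count filters and prior counts, the replicate block, separate fits and leaving out each library. Plots were made with matplotlib 3.10.9 in Python 3.11.15.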

Additional observations from a re-analysis of the deposited data

Results flagged for a closer look

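Among 76 genes that could be named, 5 had every sgPACT-2 library on one side of the control mean in HCC1806 and on the other side in MDA-MB-468. The share of all tested genes that meet this rule was not worked out, so nothing is read from the count. The difference between the lines was not tested for any of them, and none passed the edgeR test in either line. LRAT, which esterifies retinol, had a log2 fold change of 1.52 in HCC1806 (3 to 6 counts in controls, 10 to 22 with sgPACT-2), where DESeq2 called it, and -0.47 in MDA-MB-468. SOX9, a regulator of BEST1 in the eye, had 0.78 and -0.16, PCSK7 0.31 and -0.07, and EGFR -0.21 and 0.20. For SOX9 in HCC1806 the groups overlapped, and the lowest sgPACT-2 library was at 13.6 CPM beside a control mean of 13.2 CPM. AP003733.1, near BEST1, had -0.66 and 1.06 on 6 to 28 counts per library. SPX, ALOXE3 and BEST1 were not among the 5.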

How the results depend on the processing

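For SPX, ALOXE3 and BEST1 no alternative reversed a direction. Leaving out each library in turn, the log2 fold changes in HCC1806 ran from 2.62 to 3.19, from 1.51 to 1.94 and from 1.14 to 1.54. In MDA-MB-468 the bound for SPX ran from 11.2 to 13.0, ALOXE3 from 1.27 to 1.74 and BEST1 from 1.33 to 1.87. At baseline the bound ran from 8.06 to 11.9, ALOXE3 from -2.88 to -2.41 and BEST1 from -1.87 to -1.40. Counts of called genes moved more. In HCC1806, 672 became 1245 with DESeq2, 1351 without a filter, 74 from its 6 libraries alone and 301 to 1792 when a library was left out (1792 without sgPACT-2 replicate 1, 301 and 413 without sgC1 replicates 1 and 2, 391 without sgPACT-2 replicate 2, and 414 to 437 without an sgNTA library, which only shares the spread). In MDA-MB-468, 46 became 113 with DESeq2, 143 without a filter, 323 from its 6 libraries alone and 19 to 98 when a library was left out (98 without HCC1806 sgPACT-2 replicate 1, 19 to 26 without any sgNTA library or sgPACT-2 replicate 1 or 3). The baseline count of 20068 became 13022 at a mean of at least 50 counts and ran from 18973 to 21248 when a library was left out. With library size alone, the HCC1806 calls were 647 higher and 146 lower, against 314 and 358, and the median of all genes was 0.132, against 0.008. With the replicate block, set within each line, 1947 genes were called in HCC1806 and 102 in MDA-MB-468. At baseline the block instead joined the same replicate number across the 2 lines, and 20128 genes were called. Same-numbered controls of the 2 lines did not deviate together (r = -0.038, -0.023 and -0.051). Of the 74 related genes the block within each line called TGM1 and TTYH2 in MDA-MB-468 (2.7%), and of the 23 neighbours PER1 (4.35%), beside 0.377% of all tested genes. Replicate numbers in MDA-MB-468 paired only weakly (r = 0.116, 0.075 and 0.106). With uncentred values 0, 2 and 0 of the 5 genes most like SPX, ALOXE3 and BEST1 stayed among the 5, and at a mean of 10 counts 3 stayed for SPX and 3 for BEST1. Within the 250 bases before the start alone, 0.772% of promoters held TGATGCAA, 1.65% TGACGTCA, 6.57% TGANTCA, 6.34% CACGTG and 9.42% CATGTG. The cause of these shifts was not tested. SPX counts of at most 38 in MDA-MB-468 limit its precision.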
